A study of Mus musculus with 6 samples.

Results

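The genes described here encode carriers and pumps that move organic ions, drugs and conjugates across cell membranes. They were chosen by gene symbol alone: numbered members of the Slc22 and Slco families, which mostly take up their substrates, and of Slc47, Abcb, Abcc and Abcg, which mostly export them. Of 17680 gene symbols in the deposited tables, 63 matched, 35 in the uptake families (23 Slc22, 12 Slco) and 28 in the efflux families (2 Slc47, 10 Abcb, 10 Abcc, 6 Abcg). RNA was sequenced in bulk from kidneys of wild-type (WT) C57BL/6 mice aged 6 to 8 weeks. The LPS group was 3 mice given an intraperitoneal injection of lipopolysaccharide, a bacterial cell wall component, and the Control group was 3 mice given phosphate-buffered saline (PBS) by the same route. Kidneys were taken on day 1, 24 h after injection, and the question was which transcripts differ in LPS-induced septic kidney injury. The labels give no sex and no LPS dose, each library is listed as its own sample, and no litter or batch is named.

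In the proximal tubule, organic anions and cations are secreted from blood to urine in consecutive steps. Basolateral carriers of the Slc22 family take them from the blood, the anion carriers in exchange for dicarboxylates made inside the cell and the cation carriers down the membrane voltage. Apical multidrug and toxin extrusion proteins (MATE, Slc47) and ATP-driven pumps of the Abc families then pass them into the lumen, while other apical Slc22 carriers recover urate, carnitine and nicotinate from the filtrate. These proteins set the renal clearance of many antibiotics, diuretics, antivirals and uremic solutes.

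The libraries held 29097558 to 33454344 counts. LPS replicate 2 carried seminal vesicle transcripts, with 43 such genes at 4.01% of its counts, against 0.0496% to 0.0837% in the other 5 libraries. Values that rest on that library are given with and without it. Levels are given as FPKM, which is per gene length, so they can be compared between genes. Changes are log2 fold changes of LPS over Control ± standard error (SE), from the edgeR quasi-likelihood test on counts, with Benjamini-Hochberg adjusted p over all 14219 genes that passed the low-count filter. Of the 63 transporter genes 50 passed that filter, 30 of them uptake and 20 efflux genes. Among these 50, 3 passed through the Control libraries alone (Slc22a14, Slc22a29 and Abcg3, with fewer than 3 LPS libraries over the minimum) and 1 through the LPS libraries alone (Abcc8).

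Most uptake genes fell in LPS kidneys, while efflux genes were divided. Over all 50 tested genes 29 fell and 5 rose, with a median log2 fold change of -0.69, and 50.5% of all genes tested passed in either direction. Of 30 tested uptake genes 21 fell (70%), 2 rose and 7 did not pass the test, with a median log2 fold change of -1.18. Of 20 tested efflux genes 8 fell (40%), 3 rose and 9 did not pass, with a median of -0.20. By role, 4 of 5 transporters of mitochondria and lysosomes fell and 0 rose. Of 2 potassium channel subunits, which export no drug, Abcc9 fell and Abcc8 rose, each at least 2-fold. Of 12 plasma membrane ABC exporters 2 fell and 2 rose, and the 1 tested MATE gene fell. The 40% is thus not a share of plasma membrane pumps alone. Over all genes tested 24.8% fell and 25.7% rose at the same threshold, and the median was 0.01. At least 2-fold decreases were found for 16 uptake and 4 efflux genes, where all genes gave 9.62%, and at least 2-fold increases for 1 uptake and 2 efflux genes, where all genes gave 8.24%. The LPS and Control libraries did not overlap in scaled counts for 26 of the 30 uptake and 11 of the 20 efflux genes, against 60.2% of all genes tested. Without LPS replicate 2, 20 uptake genes fell and 2 rose, and 6 efflux genes fell and 2 rose. The counts of 2-fold increases rest on few genes: with LPS replicate 1, LPS replicate 2, Control replicate 1 or Control replicate 2 left out, and in DESeq2, limma and the fit with a replicate block, 1 efflux gene was at least 2-fold higher, since Abcc8 no longer counted. For uptake genes that count ranged from 0 to 3 over the alternatives, and it was 1 without LPS replicate 2, where 16 uptake and 4 efflux genes were at least 2-fold lower. No test was made of the difference between the uptake and efflux counts, since the genes of a family are not independent.

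**Figure D1:**
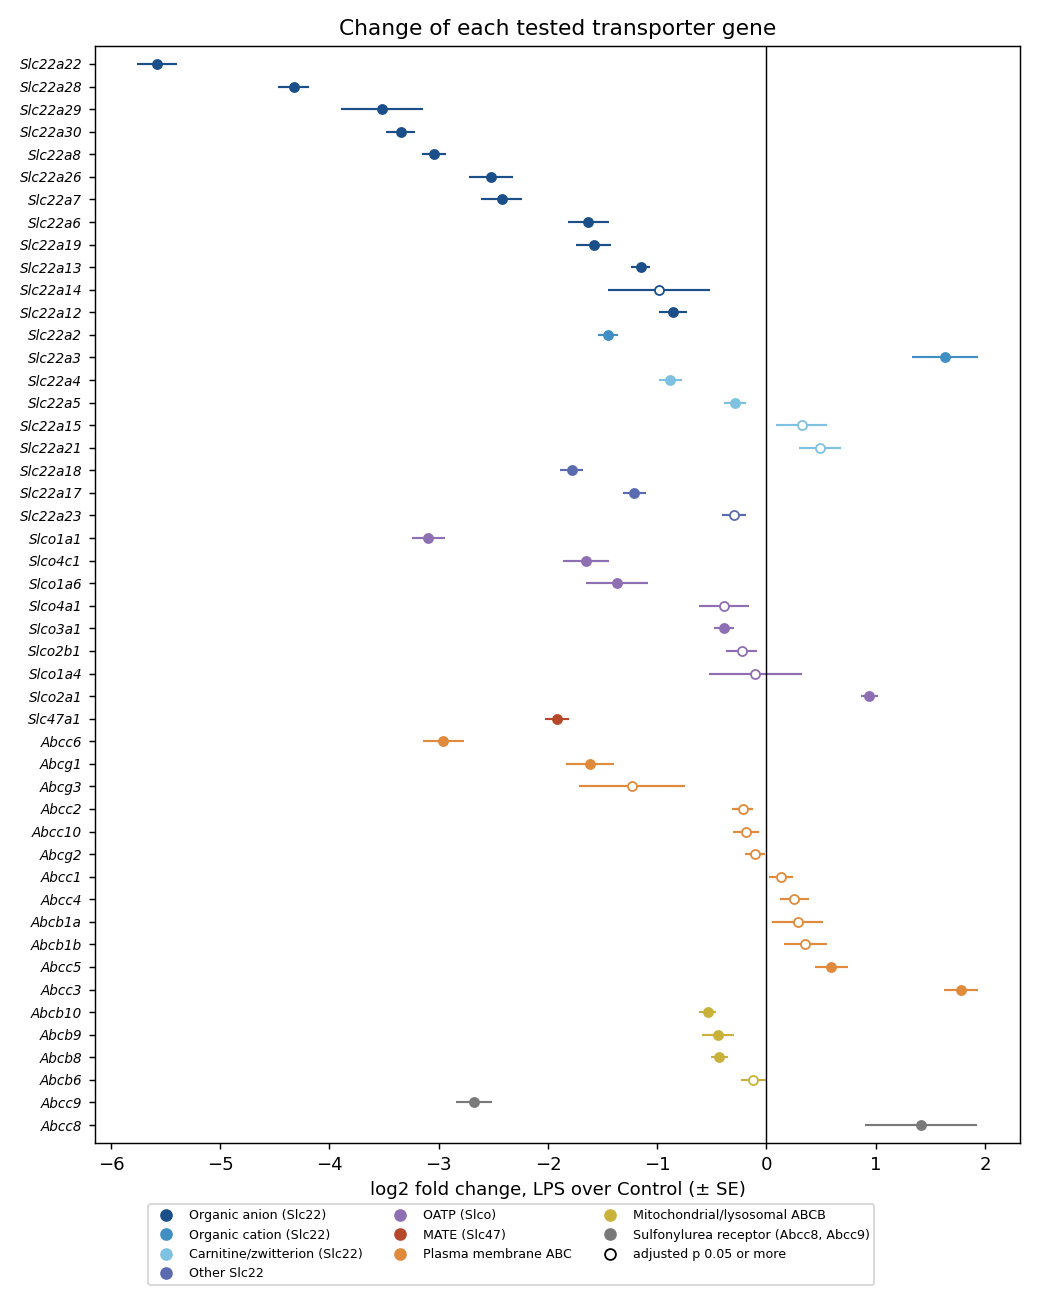
Log2 fold change (LPS over Control, x axis) with its SE for 48 of the 50 tested transporter genes, grouped and coloured by role; filled circles have an adjusted p under 0.05. The organic anion transporters lie between -5.58 and -0.86, and most plasma membrane ABC exporters lie near 0.

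The summed level of the uptake genes was 1077, 1189 and 1351 FPKM in LPS replicates 1, 2 and 3, against 2998, 2996 and 2821 FPKM in Control replicates 1, 2 and 3. The efflux genes summed to 346, 279 and 310 FPKM in LPS kidneys and to 468, 476 and 485 FPKM in Control kidneys. The groups did not overlap in either sum, and the mean LPS sum was 0.410 times the mean Control sum for uptake and 0.654 times for efflux. Uptake genes together stood at 3.11, 4.26 and 4.36 times the efflux genes in LPS libraries and at 6.40, 6.29 and 5.82 times in Control libraries. The MATE carriers summed to 54.8, 40.8 and 45.7 FPKM in LPS and 174, 180.0 and 183 FPKM in Control kidneys. The plasma membrane ABC exporters summed to 230.3, 186 and 209 FPKM in LPS and 221, 222 and 228 FPKM in Control kidneys, ranges that overlap.

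**Figure D2:**
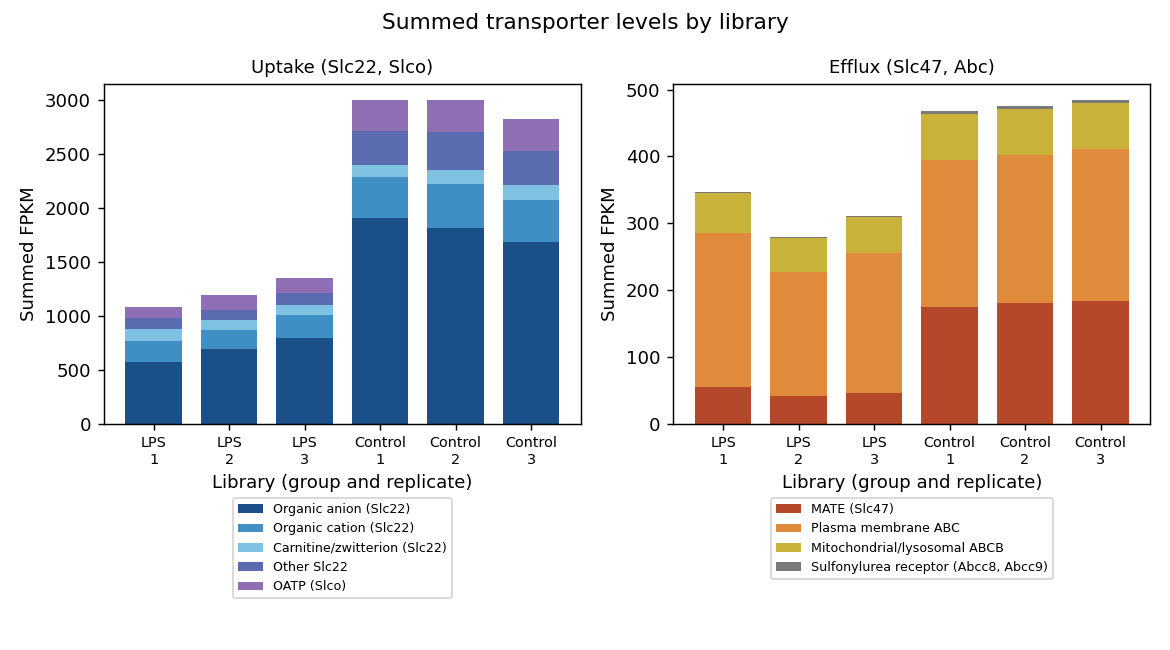
Summed FPKM (y axes, different scales, both from 0) of the uptake genes (left) and efflux genes (right) in each of the 6 libraries, stacked by role. The organic anion transporters make up most of the uptake sum, and within the efflux sum the MATE part is lower in all 3 LPS libraries.

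Proximal tubule cells carry most of these transporters, and markers of this and of other nephron segments were lower in LPS kidneys. All 12 proximal tubule markers fell, with a median of -2.01, and their summed level was 2309 to 2801 FPKM in LPS and 8756 to 9736 FPKM in Control kidneys. Lrp2, which encodes the endocytic receptor megalin, stood at 33.4 ± 4.66 FPKM in LPS and 159 ± 9.93 FPKM in Control kidneys (SD, n = 3 each). Of 5 markers of the loop of Henle 4 fell, with a median of -0.92 and a summed level of 1724 to 1794 FPKM in LPS and 2530 to 2615 FPKM in Control kidneys. All 3 markers of the distal convoluted tubule fell (median -0.86), as did 5 of 6 markers of the collecting duct (median -1.37). The 5 tested neutrophil markers all rose, with a summed level of 129 to 179.6 FPKM in LPS and 4.46 to 5.42 FPKM in Control kidneys. These marker counts are to be read against the 24.8% of all genes tested that fell and the 25.7% that rose. In bulk tissue, fewer proximal tubule cells and less RNA per cell cannot be told apart, and the part of these markers in the transporter values was not tested.

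Slc22a6 encodes the main basolateral exchanger of organic anions, and Slc22a22 had the lowest fold change. The promoters of Slc22a28 and Slc22a30 are identical in 93.0% of aligned columns. Promoter sequences of these 4 genes are shown. Each is the 120 bases directly before an annotated start, read 5′ to 3′ along the gene, from RefSeq (GRCm38.p6), which lists a promoter for 49 of the 63 genes. HNF4 is a transcription factor known to drive organic anion transporter genes, and C/EBP factors act in the acute phase response. The capitals mark the HNF4-type motif GGNCAAAG in Slc22a6, TATAAA on the opposite strand in Slc22a22, and the C/EBP-type motif TTGCNNAA in Slc22a28 and Slc22a30.
Slc22a6 (chr19:8617876-8617995, plus strand): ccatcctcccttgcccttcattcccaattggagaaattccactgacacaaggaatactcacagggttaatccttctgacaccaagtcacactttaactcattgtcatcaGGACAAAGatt
Slc22a22 (chr15:57265162-57265281, minus strand): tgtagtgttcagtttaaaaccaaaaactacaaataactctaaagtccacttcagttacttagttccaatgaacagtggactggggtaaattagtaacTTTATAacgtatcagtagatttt
Slc22a28 (chr19:8131983-8132102, minus strand): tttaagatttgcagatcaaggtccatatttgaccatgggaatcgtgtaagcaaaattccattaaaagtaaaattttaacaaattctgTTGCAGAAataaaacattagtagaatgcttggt
Slc22a30 (chr19:8405106-8405225, minus strand): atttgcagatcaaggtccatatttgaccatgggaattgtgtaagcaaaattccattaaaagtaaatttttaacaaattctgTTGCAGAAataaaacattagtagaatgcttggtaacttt
Over the 250 bases before each start and on both strands, GGNCAAAG was present in Slc22a6, Slc22a8 and Abcb6 of the 49 genes, and in 5.62% of 27025 genes. The NF-kB-type consensus was present in Slc22a2 alone of the 49, and in 1.65% of all genes. TTGCNNAA was present in 7 of the 49, Slc22a6, Slc22a28 and Slc22a30 among them, and in 10.8% of all genes. TATAAA was present in 8 of the 49 and in 14.3% of all genes. Genes that fell and genes that did not pass both carried GGNCAAAG, TTGCNNAA and TATAAA, while Slc22a2, with the NF-kB-type consensus, fell. Slco2a1, which rose, also carried TATAAA. All these letters describe the sequence and not a bound site. Slc22a22 has 2 annotated starts, and the match lies before the start shown.

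Among the organic anion transporters, 11 of 12 tested genes fell, 10 of them at least 2-fold, and the list median was -2.47. The shares of all genes tested were 24.8% lower and 9.62% lower by at least 2-fold. Slc22a14 and Slc22a29 among these 12 passed the filter through the Control libraries alone. Several of the 12 resemble each other in sequence, as described below, so they are not 12 separate observations. Slc22a6, which encodes OAT1, the basolateral exchanger that takes up para-aminohippurate, stood at 61.1, 93.4 and 108 FPKM in LPS kidneys, against 273, 272 and 273 FPKM in Control kidneys. The LPS libraries differed among themselves, with LPS replicate 1 lowest, but all lay below every Control library (log2 fold change -1.63 ± 0.18, adjusted p = 0.000104). Slc22a8, which encodes OAT3, the basolateral carrier of penicillins and diuretics, stood at 15.4, 18.5 and 15.5 FPKM in LPS kidneys and 127, 138 and 144 FPKM in Control kidneys. Its decrease, -3.04 ± 0.11, was the larger of this adjoining pair (adjusted p = 1.79e-07). Slc22a7, which encodes OAT2, stood at 24.3, 18.5 and 23.6 FPKM in LPS kidneys, against 144, 129.8 and 86.4 FPKM in Control kidneys. Control replicate 3 was the lowest of its group, still above every LPS library (-2.42 ± 0.19, adjusted p = 9.69e-06).

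Slc22a22, which encodes OAT-PG, a prostaglandin-specific carrier of the mouse proximal tubule, had the lowest fold change of the 50 genes. It stood at 1.13, 1.92 and 1.62 FPKM in LPS kidneys and 71.6, 76.1 and 77.7 FPKM in Control kidneys. That is 47.9-fold lower (-5.58 ± 0.18, adjusted p = 1.02e-07), and by mean level the gene took place 41 of 63 in LPS kidneys and place 15 in Control kidneys.

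The apical urate carriers fell too. Slc22a12, which encodes URAT1 and recovers urate from the filtrate, had the highest level of all 63 genes in either group. It stood at 412, 508 and 593 FPKM in LPS kidneys, against 963, 931 and 868 FPKM in Control kidneys (-0.86 ± 0.13, adjusted p = 0.000571). Slc22a13, which encodes the nicotinate and urate exchanger OAT10, stood at 15.1, 15.5 and 13.6 FPKM in LPS kidneys and 36.3, 33.0 and 29.8 FPKM in Control kidneys (-1.15 ± 0.09, adjusted p = 9.35e-06). Neither gene's groups overlapped, as for 60.2% of all genes tested. Of the 50-base windows of the Slc22a13 transcript, 36.0% also occur in the pseudogene Slc22a13b-ps. Slc22a14, which adjoins Slc22a13, had 16 counts in the LPS and 30 in the Control libraries and did not pass (-0.98 ± 0.47, adjusted p = 0.110).

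The rodent-specific relatives of these carriers lie side by side with Slc22a8 and Slc22a6 on chromosome 19. In the RefSeq order of protein-coding genes, Slc22a19, Slc22a26, Slc22a27, Slc22a28, Slc22a29, Slc22a30, Slc22a8 and Slc22a6 follow each other with no other coding gene between them. All 7 tested genes of this run fell, where 24.8% of all genes tested fell. Slc22a29 among these 7 passed the filter through the Control libraries alone. Several of them resemble each other in sequence, as described below, so they are not 7 separate observations. Slc22a28 stood at 5.14, 4.07 and 4.49 FPKM in LPS kidneys and 111, 84.4 and 81.8 FPKM in Control kidneys (-4.32 ± 0.14, adjusted p = 1.02e-07). Slc22a30 stood at 3.72, 4.73 and 4.99 FPKM in LPS kidneys and 51.4, 42.2 and 44.5 FPKM in Control kidneys (-3.35 ± 0.13, adjusted p = 2.57e-07). For both genes every LPS library lay far below every Control library.
Slc22a19 stood at 32.6, 23.2 and 28.3 FPKM in LPS kidneys and 102, 84.6 and 67.4 FPKM in Control kidneys (-1.58 ± 0.16, adjusted p = 5.29e-05). Slc22a26 stood at 3.23, 2.04 and 2.65 FPKM in LPS kidneys and 19.4, 14.6 and 11.8 FPKM in Control kidneys (-2.52 ± 0.20, adjusted p = 1.23e-05). For both, Control replicate 3 was the lowest and Control replicate 1 the highest Control library, as for Slc22a7. Slc22a29 was scarce, at 0.0926, 0.191 and 0.136 FPKM in LPS kidneys and 1.19, 1.95 and 1.76 FPKM in Control kidneys (-3.52 ± 0.38, adjusted p = 7.46e-05). Slc22a27 did not reach the filter, with 1 count in the LPS and 23 counts in the Control libraries, a ratio of 0.0409 (exact 95% binomial interval 0.000994 to 0.252, counting error only).

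These relatives resemble each other, and how the counting assigned reads that match several of them is not known, which leaves each gene's own value uncertain. Of all windows of 50 bases in the longest GENCODE M21 coding transcript of Slc22a28, 53.3% also occur in transcripts of Slc22a30, and 32.0% of those of Slc22a30 occur in Slc22a28. The share was 25.8% for Slc22a27 against Slc22a29. The 250 bases before the starts of Slc22a28 and Slc22a30 are identical in 93.0% of aligned columns, against 43.7% to 65.2% for the other pairs of the 8 genes. Slc22a6 and Slc22a8 shared 0% and 0.53% of their windows with any other gene, and their promoters are 51.5% identical.

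**Figure D3:**
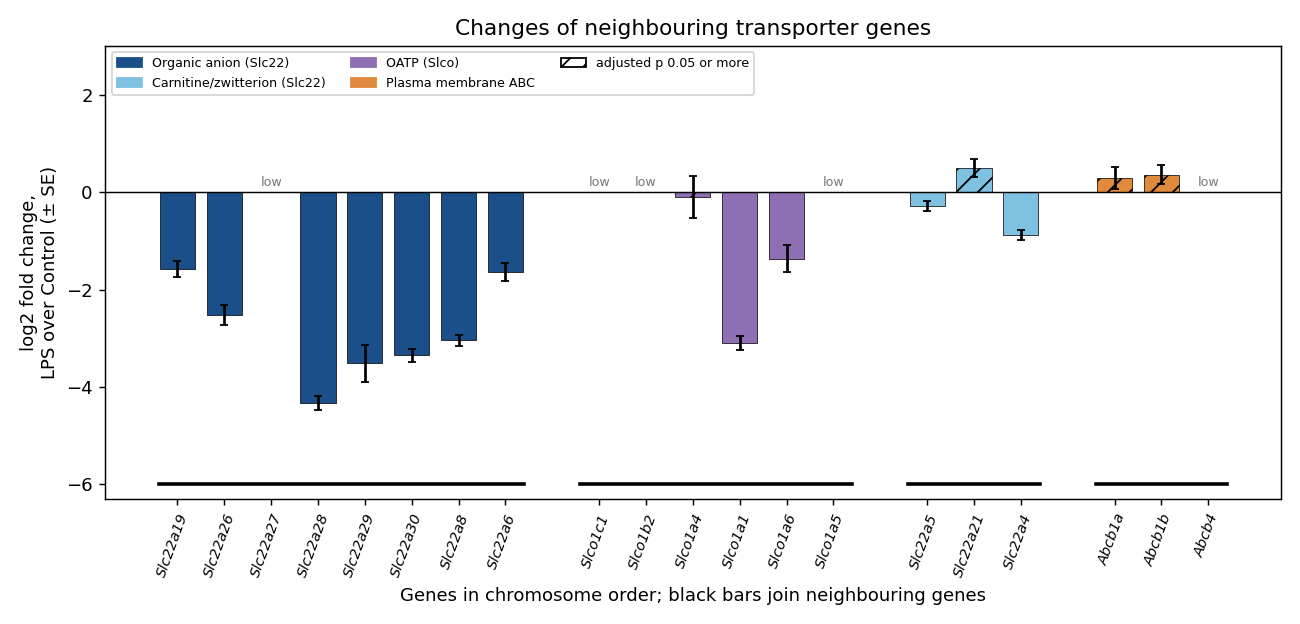
Log2 fold change (LPS over Control, y axis) ± SE of transporter genes in chromosome order for 4 runs of at least 3 neighbouring members; hatched bars did not pass the test and "low" marks genes below the count filter. All 7 tested genes of the chromosome 19 run are below 0, while the carnitine carrier run holds genes on both sides of 0. Slc22a29 among these 7 passed the filter through the Control libraries alone.

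Organic cation transporters moved in both directions, including neighbours on chromosome 17. Slc22a2, which encodes OCT2, the basolateral carrier of creatinine, metformin and cisplatin, stood at 50.6, 50.2 and 58.5 FPKM in LPS kidneys, against 155, 149 and 136 FPKM in Control kidneys (-1.45 ± 0.09, adjusted p = 3.56e-06). It fell with no overlap between groups, as was found for 60.2% of all genes tested in either direction. Slc22a3, which encodes OCT3, a carrier of monoamines, rose, at 1.54, 1.58 and 1.14 FPKM in LPS kidneys against 0.304, 0.432 and 0.635 FPKM in Control kidneys (1.64 ± 0.30, adjusted p = 0.00187). Its level stayed far below that of Slc22a2 in all 6 libraries.

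Slc47a1, which encodes MATE1, the apical proton exchanger that completes organic cation secretion, stood at 54.7, 40.7 and 45.6 FPKM in LPS kidneys, against 174, 179.9 and 183 FPKM in Control kidneys. Its decrease, -1.92 ± 0.11 (adjusted p = 1.75e-06), left no overlap between groups, as for 60.2% of all genes tested. RNA for the basolateral and the apical step of cation secretion thus fell together. Slc47a2, which encodes MATE2, had 8 counts in the LPS and 10 in the Control libraries and was not tested.

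Of 4 carnitine and zwitterion carriers 2 fell (50%, against 24.8% of all genes tested), 0 rose and 2 did not pass. Their median was 0.02, with no called change of 2-fold. Slc22a5, which encodes OCTN2, the apical sodium-carnitine cotransporter, stood at 92.9, 76.8 and 75.1 FPKM in LPS kidneys, against 96.0, 98.1 and 106 FPKM in Control kidneys. The groups lay close together (-0.29 ± 0.10, adjusted p = 0.0343), and the call was lost when any of 4 libraries was left out. The adjusted p was 0.111 without LPS replicate 2, 0.104 without LPS replicate 3, 0.0863 without Control replicate 2 and 0.124 without Control replicate 3. With the replicate number as a block its adjusted p was 0.0544, and all alternatives together ranged from 0.00690 to 0.124. Slc22a4, which encodes the ergothioneine carrier OCTN1, stood at 12.6, 11.1 and 12.3 FPKM in LPS kidneys and 19.5, 22.9 and 24.0 FPKM in Control kidneys (-0.88 ± 0.10, adjusted p = 0.000119). Slc22a21, which lies between these genes and encodes Octn3, did not pass (0.49 ± 0.19, adjusted p = 0.0578), with 0.0162 to 0.146 over the alternatives. It shares 23.8% of its windows with Slc22a5, so reads of the pair can be split. Slc22a15 did not pass either (0.32 ± 0.23, adjusted p = 0.276).

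Of the remaining Slc22 genes, Slc22a18, an orphan carrier of an imprinted region, was the second most abundant transporter RNA in Control kidneys. It stood at 81.8, 83.6 and 95.5 FPKM in LPS kidneys and 285, 328 and 292 FPKM in Control kidneys (-1.78 ± 0.10, adjusted p = 1.75e-06). Slc22a17, which encodes a receptor for lipocalin-2, stood at 6.05, 5.50 and 5.66 FPKM in LPS kidneys and 12.1, 14.6 and 13.2 FPKM in Control kidneys (-1.21 ± 0.11, adjusted p = 2.25e-05). Both were separated between groups, as were 60.2% of all genes tested. Slc22a23, an orphan carrier, lay near the threshold (-0.29 ± 0.11, adjusted p = 0.0533), with 0.0266 to 0.159 over the alternatives.

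**Figure D4:**
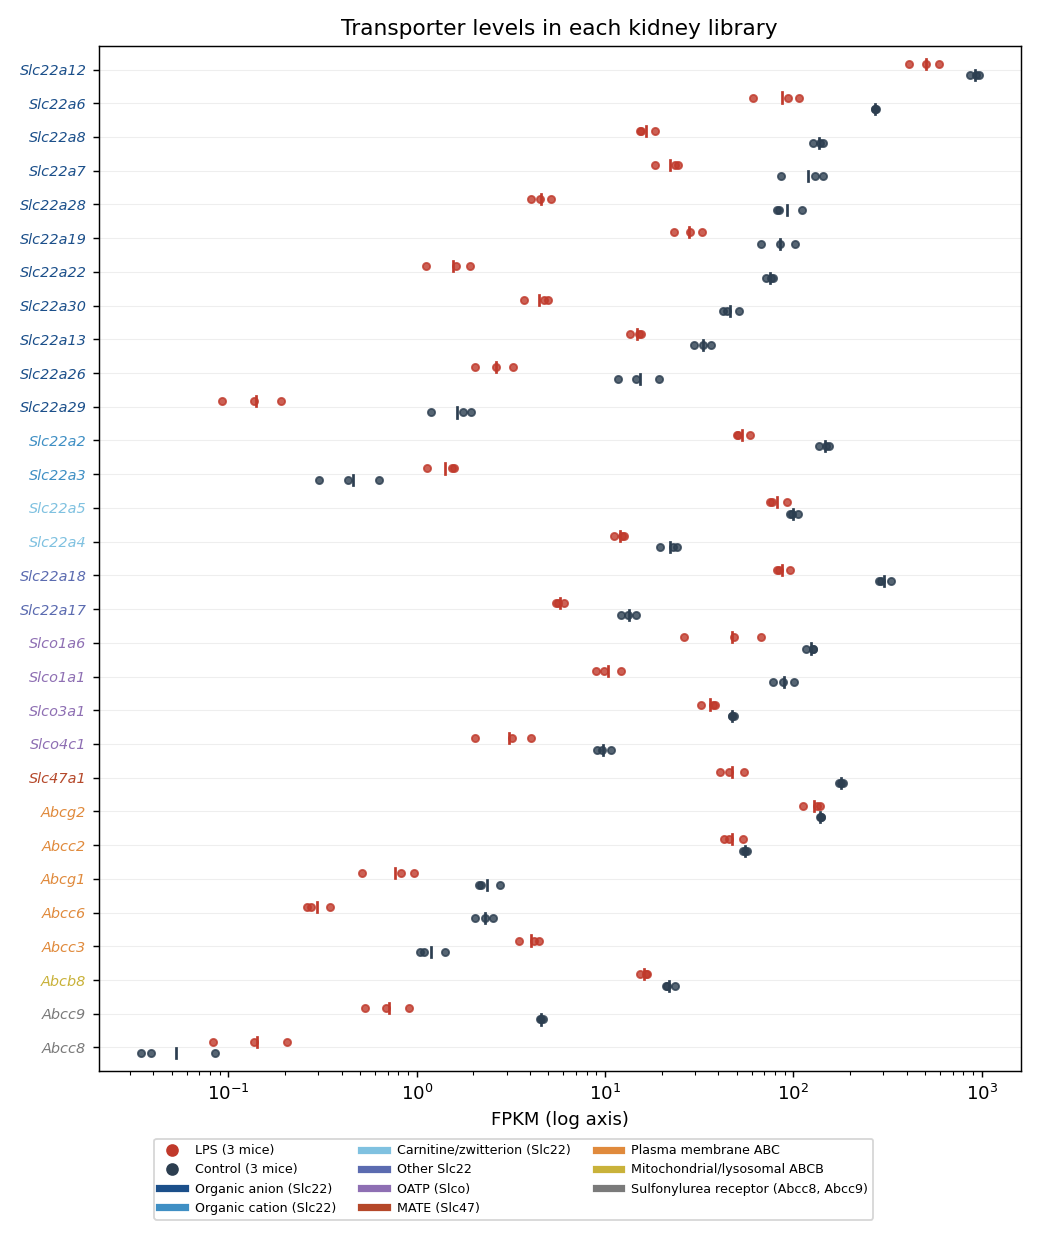
FPKM (x axis, log scale) in each of 6 libraries for 30 transporter genes with a called change of at least 2-fold or a group mean of at least 20 FPKM; circles are mice, vertical ticks are group means, LPS above Control. Slc22a3, Abcc3 and Abcc8 are the only genes shown whose LPS means lie above their Control means.

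The organic anion transporting polypeptides (OATP, Slco), which carry steroid conjugates, thyroid hormones and prostaglandins, also moved in both directions. Of 8 tested genes 4 fell (50%, against 24.8% of all genes tested), 1 rose (12.5%, against 25.7%) and 3 did not pass, with a median of -0.39. Slco1a1, a carrier of steroid sulfates, stood at 8.92, 9.93 and 12.1 FPKM in LPS kidneys, against 78.4, 100.2 and 88.0 FPKM in Control kidneys (-3.10 ± 0.15, adjusted p = 7.68e-07). Its relative Slco1a6 stood at 26.2, 48.4 and 67.6 FPKM in LPS kidneys and 126, 117 and 128 FPKM in Control kidneys (-1.37 ± 0.28, adjusted p = 0.00319). The LPS libraries were spread widely for Slco1a6, with LPS replicate 1 lowest, as for Slc22a6 and Slc22a12.
Slco4c1, a basolateral carrier of digoxin and thyroid hormone, stood at 4.04, 3.22 and 2.03 FPKM in LPS kidneys and 10.7, 9.09 and 9.63 FPKM in Control kidneys (-1.65 ± 0.21, adjusted p = 0.000197). Slco3a1 stood at 32.2, 37.5 and 38.3 FPKM in LPS kidneys and 47.1, 47.0 and 48.2 FPKM in Control kidneys (-0.39 ± 0.09, adjusted p = 0.00670). Slco2a1, which encodes the prostaglandin transporter that clears prostaglandins from the extracellular space, rose. It stood at 15.9, 17.6 and 15.6 FPKM in LPS kidneys, against 8.81, 8.76 and 8.16 FPKM in Control kidneys (0.94 ± 0.08, adjusted p = 1.25e-05). Slco2a1 was thus higher and Slc22a22, the prostaglandin carrier gene described above, lower in LPS kidneys. Each was without overlap between groups, as were 60.2% of all genes tested. The other transporter genes were not sorted by prostaglandin transport. Slco2a1 is also a gene of endothelium. Of 8 endothelial markers 0 rose (against 25.7% of all genes tested), 3 fell (37.5%, against 24.8%) and 5 did not pass. Their summed level was 106 to 123 FPKM in LPS and 122.5 to 165 FPKM in Control kidneys, and their part in the Slco2a1 value was not tested.

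Slco2b1 (-0.23 ± 0.14, adjusted p = 0.205), Slco4a1 (-0.39 ± 0.23, adjusted p = 0.185) and Slco1a4 (-0.10 ± 0.43, adjusted p = 0.862) did not pass. Slco4a1 passed without LPS replicate 1 (-0.69, adjusted p = 0.0113) and with the replicate number as a block (-0.43, adjusted p = 0.0185), within 0.0113 to 0.481 over the alternatives. Slco1a5 was seen almost only in LPS replicate 2, with 462 counts, against 2 and 3 counts in LPS replicates 1 and 3 and 1 to 7 counts in the Control libraries. That is the library with the seminal vesicle transcripts, and their part in the Slco1a5 value was not tested. Slco5a1 had 49 counts in the LPS and 7 in the Control libraries, Slco1c1 had 2 and 1, and Slco1b2, the carrier of the hepatocyte, 0 and 1, and none of them was tested.

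Among plasma membrane ABC exporters the abundant apical pumps did not pass the test. Of 12 tested genes 2 rose (16.7%, against 25.7% of all genes tested), 2 fell (16.7%, against 24.8%) and 8 did not pass, with a median of 0.01. Abcg2, which encodes the breast cancer resistance protein, an apical pump for urate, sulfates and drugs, stood at 138, 112 and 134 FPKM in LPS kidneys, against 138, 140.3 and 139.7 FPKM in Control kidneys (-0.11 ± 0.09, adjusted p = 0.358). In FPKM, LPS replicate 1 reached the Control values and LPS replicates 2 and 3 lay below them. In scaled counts, only LPS replicate 2 lay below the Control range. Abcg2 took place 3 of 63 by mean level in LPS kidneys, against place 7 in Control kidneys. Abcc2, which encodes MRP2, the apical pump for glutathione and glucuronide conjugates, stood at 54.0, 42.8 and 45.5 FPKM in LPS kidneys and 53.9, 55.6 and 56.7 FPKM in Control kidneys (-0.22 ± 0.09, adjusted p = 0.0844). LPS replicate 1 lay within the Control range, and without it Abcc2 passed as lower (-0.31, adjusted p = 0.0145), within 0.0145 to 0.278 over the alternatives. Abcc4, which encodes MRP4, an apical pump for cyclic nucleotides and organic anions, stood at 9.34, 7.28 and 6.57 FPKM in LPS kidneys and 6.81, 5.61 and 7.15 FPKM in Control kidneys (0.25 ± 0.13, adjusted p = 0.139).

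The P-glycoprotein genes, whose product pumps hydrophobic drugs, did not pass. Abcb1a stood at 1.73, 1.47 and 2.25 FPKM in LPS kidneys and 1.27, 1.26 and 1.96 FPKM in Control kidneys (0.28 ± 0.23, adjusted p = 0.332). Abcb1b stood at 3.54, 3.53 and 3.63 FPKM in LPS kidneys and 2.20, 2.42 and 3.77 FPKM in Control kidneys (0.36 ± 0.19, adjusted p = 0.154). In Abcb1b, Control replicate 3 alone reached the LPS values, and without it the gene passed as higher (0.64, adjusted p = 0.00427), within 0.00427 to 0.407 over the alternatives. These neighbours share 15.5% to 18.0% of their windows, so part of their reads can be split. Abcc1 (0.13 ± 0.11, adjusted p = 0.347), Abcc10 (-0.19 ± 0.12, adjusted p = 0.231) and Abcg3 (-1.23 ± 0.48, adjusted p = 0.0603) did not pass either.

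The exporters that rose are known as basolateral pumps. Abcc3, which encodes MRP3, a pump for glucuronides and bile acids, stood at 4.20, 4.46 and 3.50 FPKM in LPS kidneys, against 1.10, 1.05 and 1.42 FPKM in Control kidneys (1.78 ± 0.16, adjusted p = 2.34e-05). Abcc5, which encodes MRP5, a pump for cyclic nucleotides, stood at 8.42, 5.58 and 5.69 FPKM in LPS kidneys and 4.69, 3.93 and 4.50 FPKM in Control kidneys (0.60 ± 0.15, adjusted p = 0.00874). Every LPS library lay above every Control library for both genes. Abcc6, whose loss causes ectopic calcification and which acts in cellular ATP release, stood at 0.346, 0.262 and 0.274 FPKM in LPS kidneys and 2.04, 2.30 and 2.56 FPKM in Control kidneys (-2.96 ± 0.19, adjusted p = 3.19e-06). Abcg1, a cholesterol exporter of macrophages and other cells, stood at 0.969, 0.822 and 0.510 FPKM in LPS kidneys and 2.76, 2.21 and 2.14 FPKM in Control kidneys (-1.61 ± 0.22, adjusted p = 0.000316). Both fell without overlap. Groups did not overlap for 60.2% of all genes tested and for 11 of the 20 efflux genes. Of 8 macrophage and monocyte markers 3 rose (37.5%, against 25.7% of all genes tested) and 3 fell (37.5%, against 24.8%). Their summed level was 130.4 to 146 FPKM in LPS and 73.3 to 132 FPKM in Control kidneys, and their part in the Abcg1 value was not tested.

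ABCB transporters of mitochondria and lysosomes fell slightly or did not pass. Abcb8, a mitochondrial transporter, stood at 16.4, 15.4 and 16.8 FPKM in LPS kidneys and 21.0, 23.6 and 21.2 FPKM in Control kidneys (-0.43 ± 0.08, adjusted p = 0.00199). Abcb10, which acts in haem synthesis, fell by 0.54 ± 0.08 (adjusted p = 0.000611). The call of the lysosomal peptide carrier Abcb9 (-0.44 ± 0.15, adjusted p = 0.0305) was lost without LPS replicate 2 (adjusted p = 0.101), LPS replicate 3 (0.0809) or Control replicate 2 (0.115), within 0.0176 to 0.115 over the alternatives. Abcb6 did not pass (-0.12 ± 0.11, adjusted p = 0.404), and 90.3% of its windows also occur in the overlapping annotation Gm29253, so its level is uncertain.

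Abcc8 and Abcc9 encode sulfonylurea receptors, the regulatory subunits of ATP-sensitive potassium channels, and export no drug. Abcc9, the subunit of vascular smooth muscle and pericytes, stood at 0.911, 0.690 and 0.535 FPKM in LPS kidneys, against 4.68, 4.51 and 4.58 FPKM in Control kidneys (-2.68 ± 0.16, adjusted p = 2.54e-06). Of 5 smooth muscle and pericyte markers 1 fell (20%, against 24.8% of all genes tested) and 0 rose, with a median of -0.29. These markers had a summed level of 49.9 to 78.0 FPKM in LPS and 73.2 to 109 FPKM in Control kidneys. Their part in the Abcc9 value was not tested. Abcc8 was scarce, at 0.205, 0.137 and 0.0830 FPKM in LPS kidneys and 0.0344, 0.0386 and 0.0849 FPKM in Control kidneys. The groups overlapped, and its call (1.42 ± 0.51, adjusted p = 0.0446) was lost without LPS replicate 1 (0.149), LPS replicate 2 (0.0864), Control replicate 1 (0.128) or Control replicate 2 (0.141) and in DESeq2 (0.0783) and limma on log2(FPKM + 1) (0.183), within 0.0288 to 0.183 over the alternatives. With the replicate number as a block its adjusted p was 0.0818.

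The other untested efflux genes were close to 0. Abcb4, the phospholipid pump, had 8 counts in the LPS and 27 in the Control libraries, Abcg4 had 17 and 7, Abcg8 had 1 and 7, Abcg5 had 3 and 3, and Abcb11, the bile salt pump, 1 and 1. Abcb5 had 8 counts and Abcc12 5 counts in the LPS libraries and both had 0 in the Control libraries. LPS replicate 2 held 7 of those 8 counts of Abcb5 and 4 of those 5 counts of Abcc12. The near absence of Abcb11 and Slco1b2, the transporters of the hepatocyte, was measured in all 6 libraries.

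Lists of genes that power, anchor or regulate these carriers held calls in both directions, to be read against the 24.8% of all genes tested that fell and the 25.7% that rose. Of 10 driver genes 5 fell and 3 rose. Slc13a3, which encodes the dicarboxylate transporter that loads the exchange substrate of OAT1 and OAT3, averaged 70.3 ± 11.7 FPKM in LPS and 254 ± 13.6 FPKM in Control kidneys (SD, n = 3 each; -1.84 ± 0.13, adjusted p = 6.83e-06). Slc13a3 was also counted above among the proximal tubule markers. Fxyd2, the gamma subunit of the sodium pump, fell by 1.21 ± 0.09 and the citrate carrier Slc13a2 fell by 0.98 ± 0.09. Of 8 scaffold genes 4 fell and 3 rose. Pdzk1, the apical scaffold of URAT1, OCTN2 and MRP2, averaged 139.5 ± 10.03 FPKM in LPS and 402 ± 9.30 FPKM in Control kidneys (-1.52 ± 0.08, adjusted p = 1.23e-06), and Pdzk1ip1 fell by 0.98 ± 0.09 and Cav1 fell by 0.72 ± 0.08.

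Of 21 tested regulators 5 fell (23.8%, against 24.8% of all genes tested), 3 rose (14.3%, against 25.7%) and 13 did not pass, with a median of -0.01. Regulators as a list were thus called no more often than all genes, and the following are single genes. Cebpb, an acute phase transcription factor, averaged 89.4 ± 6.66 FPKM in LPS and 18.6 ± 2.21 FPKM in Control kidneys (2.27 ± 0.10, adjusted p = 5.24e-07). The oestrogen receptor Esr1 fell by 2.26 ± 0.19 and the glucocorticoid receptor Nr3c1 fell by 0.87 ± 0.09. Hnf4a, which activates many proximal tubule genes, averaged 135 ± 7.98 FPKM in LPS and 195.8 ± 15.7 FPKM in Control kidneys (-0.52 ± 0.09, adjusted p = 0.00128). Nr1i2, which encodes the xenobiotic receptor PXR, averaged 3.61 ± 0.906 FPKM in LPS and 1.82 ± 0.263 FPKM in Control kidneys and rose by 0.99 ± 0.22 (adjusted p = 0.00521).

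Of 20 tested transporters of related substrates outside these families 9 fell (45%, against 24.8% of all genes tested), 3 rose (15%, against 25.7%) and 8 did not pass, with a median of -0.23. Slc17a3, an apical urate and drug exporter, averaged 31.7 ± 0.857 FPKM in LPS and 139.9 ± 17.4 FPKM in Control kidneys (-2.13 ± 0.09, adjusted p = 3.79e-07). Slc16a9, a carnitine and urate carrier, averaged 26.3 ± 2.38 FPKM in LPS and 71.2 ± 6.61 FPKM in Control kidneys (-1.43 ± 0.10, adjusted p = 7.13e-06). Mvp, which encodes the major vault protein and is no carrier itself, rose, with 102 ± 7.43 FPKM in LPS and 19.2 ± 0.513 FPKM in Control kidneys (2.43 ± 0.09, adjusted p = 1.89e-07).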

How the data were processed

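For each kidney the authors deposited raw read counts and FPKM values, both listed by gene symbol. The submitters' processing notes name HISAT2, HTSeq, SAMtools, DESeq2 and R 3.2.0 without roles. Total RNA was prepared with TRIzol reagent, per the labels' protocols. The build, annotation and strand setting behind the counts were not given in the sources used here. For 106077 of 106080 values, FPKM could be recomputed from the count, an integer gene length and the sum of the library's counts to a relative tolerance of 1e-06.

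Groups came from the sample titles. LPS was tested against Control, two-sided, with the quasi-likelihood test of edgeR 4.0.16 (R 4.3.3), TMM factors and filterByExpr (count of 10, total of 15) over 14219 genes, with Benjamini-Hochberg adjustment and a threshold of 0.05. The procedure was tested on simulated data. Each SE was taken as the absolute log2 fold change over the root of F. Each p-value sets the difference between groups against the spread between these libraries, 3 a group, with that spread moderated across genes.

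The genes and lists were chosen with earlier results of these data known. Values in every library are given for called changes of at least 2-fold and for means of at least 20 FPKM; those of other genes, and Lrp2, Hnf4a and Nr1i2, were chosen after their values were seen. For related lists the 3 genes with the smallest p are named. Some genes are included in counts and sums but are not reported here by name. Alternatives were RLE or no scaling factors, 43 seminal vesicle genes removed, other filters, DESeq2 1.42.0, limma 3.58.1 on log2(FPKM + 1) or log2(FPKM + 0.1), a replicate block and leaving out each library.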

Additional observations from a re-analysis of the deposited data

How the results depend on the processing

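With 3 libraries a group, small changes and genes of few counts are poorly resolved. The counts of uptake genes lower in LPS kidneys (20 to 23) and of efflux genes lower (6 to 10) stayed within 1.5 times of 21 and 8 under every alternative run, as did the counts of both lower and at least 2-fold (15 to 17 and 3 to 4) and the counts over all genes. Without a low-count filter 4 uptake genes were higher, 3 of them at least 2-fold, since Slco1a5 (log2 fold change 5.38) and Slco5a1 (2.66) entered the test. With a mean CPM of at least 1, 2 were at least 2-fold higher, Slco1a5 among them. In limma on log2(FPKM + 1), with or without a mean FPKM of at least 1, 0 were at least 2-fold higher, also at an unadjusted p under 0.05: Slc22a3 changed by 0.73 on that scale, which understates low genes, and did not reach the filter. Leaving out 1 library gave 1 to 2 uptake and 1 to 2 efflux genes at least 2-fold higher, with Slco5a1 added without LPS replicate 3 or Control replicate 1. The efflux count of 2 became 1 without a low-count filter, with a mean CPM of at least 1, in DESeq2, in limma on log2(FPKM + 1), on log2(FPKM + 0.1) and on log2(FPKM + 1) with a mean FPKM of at least 1, and with the replicate block. In each of these Abcc3 remained and Abcc8 was lost, not tested or changed less than 2-fold.

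Of 790 values of the 50 tested genes under the alternatives, 752 kept direction and call, 21 lost the call (4 genes), 14 gained it (7 genes) and 3 turned direction. Those were values of Slco1a4, which ranged from -0.65 to 0.15 with 1 library left out and turned without LPS replicate 2 (0.08), LPS replicate 3 (0.15) or Control replicate 1 (0.14), with adjusted p of 0.903, 0.810 and 0.831. The labels do not say whether the replicate numbers pair the mice. Deviations of same-numbered libraries correlated at 0.0478, -0.0535 and -0.00201. These values gave no sign of pairing, but with 3 libraries a group they cannot exclude it. With the replicate number as a block 21 uptake genes were lower and 2 higher, 8 efflux genes lower and 2 higher, and 3414 genes higher and 3331 lower over all genes.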
